A study of Drosophila melanogaster with 6 samples.

Results

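The genes examined are the nuclear genes of the mitochondrial respiratory chain and ATP synthase in the brain of Drosophila melanogaster pupae, together with their L paralogs. They were taken from the deposited table of gene counts by name: every gene whose name begins with ND- (complex I), UQCR- (complex III), COX and a digit (complex IV) or ATPsyn (ATP synthase). This gave 74 of the 17807 listed genes. A gene whose name ends in L was called an L paralog, which gave 14 genes, and the 2 genes ND-51L1 and ND-51L2, whose names end in L and a digit, are described beside them. The other 58 are called general genes here. ND-MNLL is among the general genes, because its last letter belongs to the subunit name MNLL.

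The study compared wild-type brains (WT, 3 libraries) with brains of the TetAXXC stock (3 libraries), both dissected 24 h after puparium formation from flies kept on standard food. TetAXXC carries targeted mutations in the CXXC zinc-finger domain of Tet, made with CRISPR/Cas9 and a repair template in the nos-Cas9 stock, after which the DsRed marker was removed by piggyBac excision. The wild-type stock, the sex of the pupae and the number of mutant lines were not given in the sources used here, and the labels give 30 brains per genotype without saying how these were divided among the libraries. RNA was selected with oligo-dT and sequenced in strand-specific libraries.

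Respiratory complexes I, III and IV pass electrons from NADH and ubiquinol to oxygen and pump protons across the inner mitochondrial membrane, and ATP synthase uses the proton gradient to make ATP. Most of their subunits are encoded in the nucleus. In Drosophila, many of these genes have duplicates, and such duplicates are known for expression in the male germ line. No testis sample was analysed here, so the name testis paralog could be checked only from the side of the brain, where these genes were near the limit of detection in WT.

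Libraries held 17861742 to 19521285 gene counts. Levels are given as CPM, a gene's counts scaled to a common library total, and for comparing different genes as CPM per kb of exon. The neuron list (8 genes) summed to 4930 to 6101 CPM and the glia list (8 genes) to 971 to 1081 CPM over all 6 libraries, as a brain sample should hold. Tet itself stood at 787 ± 88.7 CPM in the WT libraries and 867 ± 66.1 CPM in the mutant ones (SD, n = 3 each), with an edgeR adjusted p of 0.499, and counts per gene do not resolve the edited domain. Across the 11198 genes tested with edgeR, 15.2% had an adjusted p under 0.05, 12.1% higher and 3.17% lower in TetAXXC. In the 3 libraries of a genotype, fewer cells of a type and less RNA per cell cannot be told apart.

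None of the general genes passed the threshold in the unblocked edgeR model, whereas most of the L paralogs rose from near 0. Of the 58 general genes, 56 passed the filter on low counts, and 0 of these 56 had an edgeR adjusted p under 0.05, against 15.2% of all genes tested and 7.8% of the 5266 tested genes within their range of mean level. At an unadjusted p under 0.05 there were 2 of the 56, against 2958 of all 11198 genes tested. DESeq2 called 1 of the 56 and 2402 of all 11198 genes. Limma-voom called 0 of the 56, but only 1.16% of all genes, so this 0 says little. With the replicate number as a block, 2 of the 56 were called (ATPsynC, lower, and ND-15, higher), against 21.1% of all genes. Their median log2 fold change was -0.05, with a range from -0.19 to 0.27, beside a median of 0.00 over all genes tested. Of the 14 L paralogs, 13 passed the filter and 11 rose, against 12.1% higher among all genes and 31.7% among the 2591 tested genes within the paralogs' range of mean level. Apart from ATPsynepsilonL, no tested L paralog reached the filter's minimum count of 10 in all WT libraries. They passed through their TetAXXC libraries, so a call of lower was hardly open to them. The comparison of these shares is therefore no test of a rise. The median log2 fold change of the 13 was 4.12, or 3.98 with the 3 genes that were at the floor in WT set at their bound. The floor is 3 counts in each library.

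**Figure D1:**
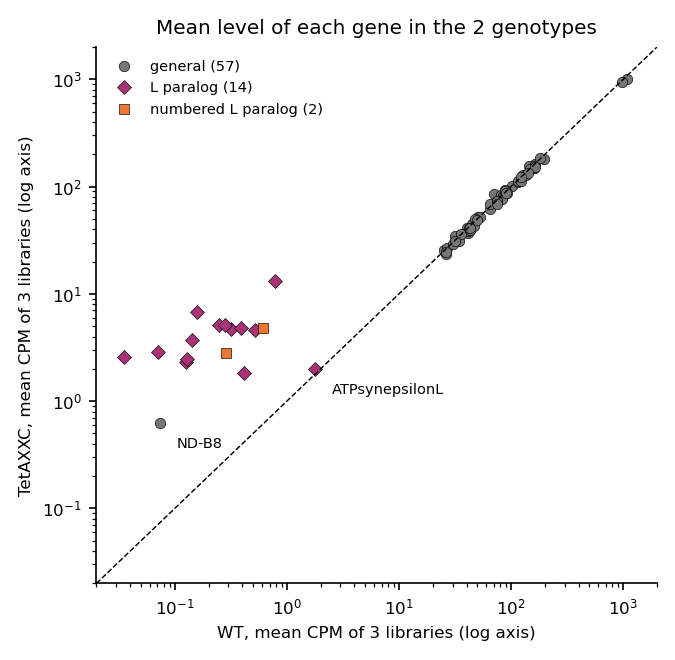
Mean CPM in TetAXXC against mean CPM in WT (both log axes, 3 libraries each) for 57 general genes, 14 L paralogs and the 2 numbered L paralogs, with the line of equal level dashed; ND-MNLL, at 0 in all libraries, is left out. The general genes lie along the line from 23.4 CPM upwards apart from ND-B8, and the paralogs lie well above it apart from ATPsynepsilonL, which is close to it.

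The calls for the paralogs depended on which libraries and which test were used. All 12 L paralogs tested other than ATPsynepsilonL stayed higher in TetAXXC in each of these fits. Leaving out WT replicate 2 or WT replicate 3 gave 0 calls among 14 paralogs tested, although 13 had an unadjusted p under 0.05 each time. In those fits 0.154% and 0.368% of all genes were called higher. Without TetAXXC replicate 1 the count was 8 of 13 tested, where 865 of 11339 genes were called higher. Without TetAXXC replicate 3 it was 5 of 13 tested, where 747 of 11350 genes were called higher. With limma-voom it was 0, where 12 had an unadjusted p under 0.05 and 1.16% of all genes were called. With all libraries and the replicate number as a block it was 12 of 13 L paralogs tested, where 21.1% of all genes were called. The fits with a library left out had no such block.

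**Figure D2:**
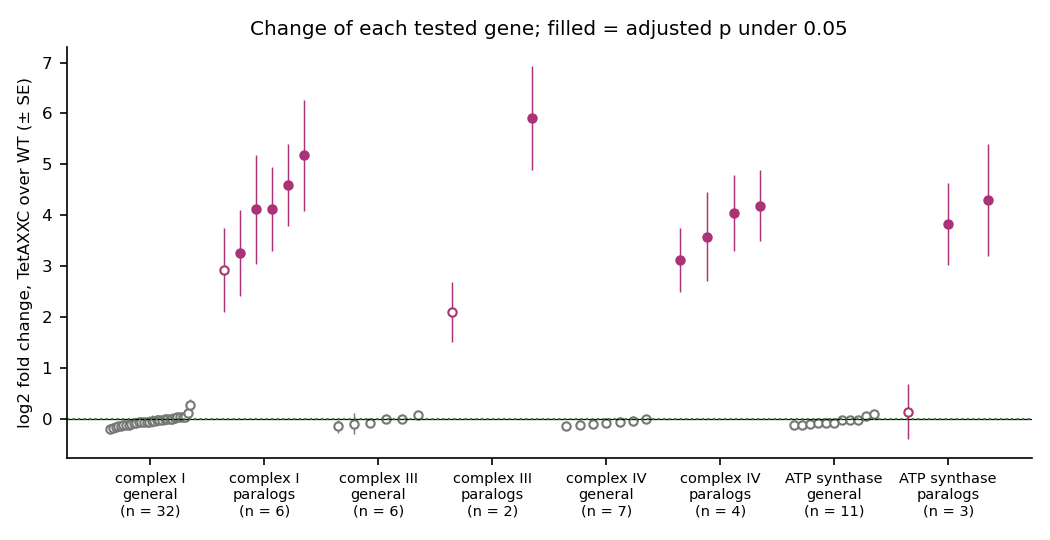
Log2 fold change of TetAXXC over WT (± standard error) for each of the 56 general genes and 15 paralogs tested, by complex, with filled points for an adjusted p under 0.05 and the median of all genes tested as a dotted line. All general genes are open points within 0.27 of 0, and 12 of the 15 paralogs are filled.

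Complex I is the entry point of electrons from NADH, and 34 general genes carry its ND- prefix. Of these, 32 were tested and 0 were called, with a median log2 fold change of -0.05. Per kb of exon, the most abundant was ND-MLRQ at 210 ± 19.6 CPM per kb (SD over 6 libraries), a gene whose human counterpart is now counted as a complex IV subunit. It stood well apart from the next, ND-AGGG at 106 ± 11.8 CPM per kb. The lowest tested was the accessory subunit gene ND-B14.5A at 30.9 ± 3.53 CPM per kb, whose libraries overlapped those of ND-13A at 34.7 ± 2.04. The core iron-sulphur subunit gene ND-75 varied least, from 146 to 152 CPM in WT and from 143 to 146 CPM in TetAXXC, and the groups overlapped narrowly.

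The counts of ND-MNLL and ND-B8 limit what can be said of these complex I genes. ND-MNLL had 0 counts in every library, and all of its exonic sequence lies within exons of CG45089 on the same strand, which had 0 counts as well. With such an overlap, the 0 gives no level for this subunit. ND-B8 (chromosome 2L, positions 4454626 to 4455207) had only 1, 1 and 2 counts over WT replicates 1 to 3, against 20, 13 and 3 over the mutant replicates. It was far below every other general gene with counts, failed the filter, and its mean was at least 3.82-fold higher in TetAXXC than the floor. Without the filter its edgeR adjusted p was 0.0665.

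The gene ND-15 had the largest log2 difference of the general genes tested and was chosen for mention after its values were seen. It was at 67.4, 84.9 and 58.1 CPM in WT replicates 1 to 3 and at 81.4, 92.6 and 80.9 CPM in TetAXXC, so the groups overlapped. On the log2 scale they differed by 0.27 (standard error 0.13), and edgeR gave an adjusted p of 0.235. Blocking on the replicate number moved it to 0.28, at which the adjusted p was 0.0163.

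The complex I paralogs correspond to core subunits of the electron-carrying arm and an accessory subunit. ND-24L is the paralog of ND-24, which carries an iron-sulphur cluster (chromosome 3L, positions 17319969 to 17320811). It counted 5, 2 and 1 across WT replicates and 136, 44 and 31 across TetAXXC replicates. Its level rose from 0.143 ± 0.108 to 3.68 ± 2.98 CPM (SD, n = 3 each), or by 4.60 on the log2 scale (standard error 0.80), for which edgeR gave an adjusted p of 0.0176. Every TetAXXC library stood above every WT library, as it did in 12 of the 14 L paralogs, against 21.4% of all genes tested. ND-24 itself stood at 41.5, 41.4 and 39.6 CPM in the WT libraries and 40.2, 39.2 and 37.3 CPM in the mutant ones, with an adjusted p of 0.409.

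ND-20L is the paralog of another iron-sulphur subunit gene, ND-20 (chromosome 3R, positions 29515717 to 29516527), and had 4, 2 and 1 counts over WT and 68, 12 and 52 over TetAXXC. ND-49L is that of the core subunit gene ND-49 (chromosome 3R, positions 25358285 to 25360034), and had 14, 0 and 2 counts in the WT libraries against 177, 36 and 78 in the mutant libraries. On the log2 scale they rose by 4.13 and 4.12 (edgeR adjusted p = 0.0209 and 0.0446). In both genes TetAXXC replicate 2 was the lowest of its genotype and still above all WT libraries. ND-B14.5AL, a copy of the accessory subunit gene ND-B14.5A (chromosome 3L, positions 22606369 to 22607126), counted 3, 1 and 0 across WT replicates and 110, 14 and 39 across TetAXXC replicates. With WT at the floor, its mean in TetAXXC was at least 17.5-fold higher, with an adjusted p of 0.0237.

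ND-51, the subunit that binds NADH and flavin, has 2 paralogs in the table. ND-51L2 (chromosome 2R, positions 15296764 to 15298329) had 12, 2 and 2 counts over WT and 103, 30 and 29 over TetAXXC, which is 3.26 on the log2 scale (edgeR adjusted p = 0.0430). ND-51L1 (chromosome 2R, positions 17595267 to 17597409) had 13, 5 and 16 counts in the WT libraries against 165, 19 and 87 in the mutant libraries. Its log2 fold change was 2.93 and its edgeR adjusted p 0.0560, which became 0.00114 once replicate number was a block. The 2 paralogs thus split their 3 mutant libraries differently, since ND-51L2 had nearly the same count in replicates 2 and 3 and ND-51L1 did not. The general gene ND-51 stood at 114.6 ± 5.68 CPM in the WT libraries and 111 ± 4.53 CPM in the mutant ones.

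**Figure D3:**
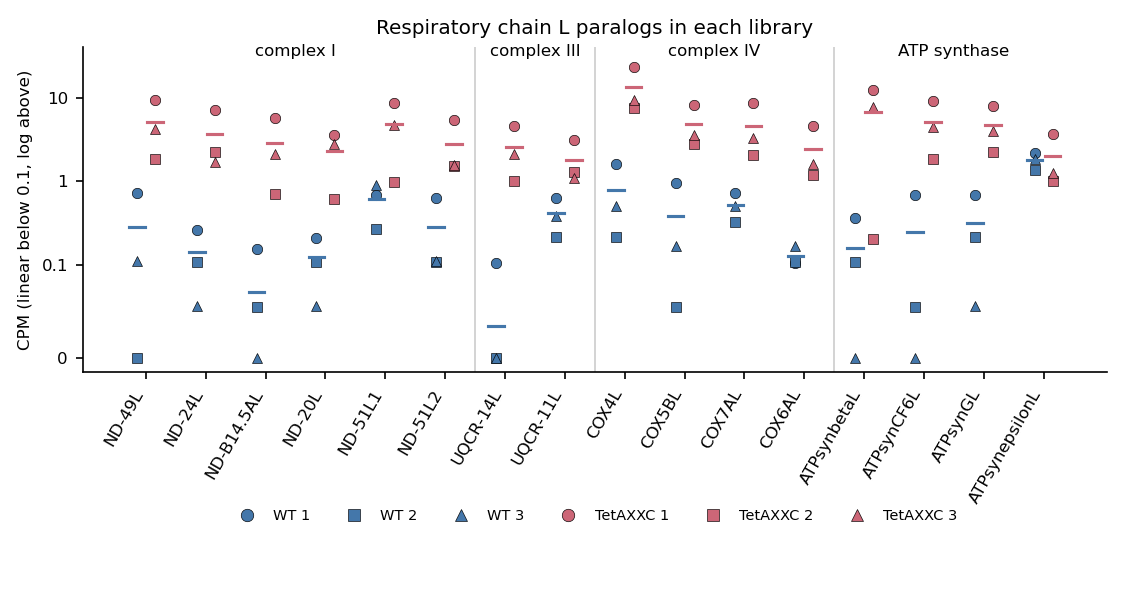
CPM of each L paralog and numbered L paralog in each library (circles, squares and triangles are replicates 1, 2 and 3; short bars are means; the axis is linear below 0.1 and log above). TetAXXC replicate 1 is the highest library for all 16 genes, and the genotypes overlap only in ATPsynbetaL and ATPsynepsilonL.

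Complex III passes electrons from ubiquinol to cytochrome c, and its 6 general genes showed 0 calls with a median log2 fold change of -0.03. UQCR-14 was the most abundant per exon length, at 170 ± 13.7 CPM per kb, followed by the core protein genes UQCR-C1 at 111 ± 3.22 and UQCR-C2 at 76.2 ± 2.49. The exons of UQCR-14 lie wholly opposite exons of CG32576 on the other strand, so this level rests on strand-aware counting. UQCR-6.4 was the lowest at 45.0 ± 9.30 CPM per kb and the most variable, with 25.7, 34.1 and 18.1 CPM in WT and 25.7, 25.1 and 22.8 CPM in TetAXXC. Its WT libraries enclosed all TetAXXC libraries.

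Of the complex III paralogs, UQCR-14L (chromosome 3R, positions 28294048 to 28294550) counted 2, 0 and 0 across WT replicates and 88, 20 and 39 across TetAXXC replicates. Its mean was at least 15.8-fold higher than the WT floor, with an edgeR adjusted p of 0.0176. UQCR-11L (chromosome 2R, positions 8677219 to 8677661) had 12, 4 and 7 counts over WT and 59, 25 and 20 over TetAXXC. This smaller difference, 2.10 on the log2 scale, had an edgeR adjusted p of 0.0565, which the block on replicate number lowered to 0.00648.

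Complex IV, cytochrome c oxidase, passes the electrons to oxygen. Its 7 general genes had 0 calls, a median log2 fold change of -0.09 and the narrowest spread of levels among the complexes, from 86.7 CPM per kb for COX7C to 177 CPM per kb for COX7A. The top of this order was not resolved, since COX7A at 177 ± 10.5, COX6B at 173 ± 16.2 and COX5A at 165 ± 9.15 CPM per kb overlapped. The WT libraries held 115.5, 129 and 125 CPM of COX7A and the mutant libraries 129, 129 and 113 CPM.

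All 4 complex IV paralogs rose. COX4L (chromosome 2R, positions 5353994 to 5354723) was the most abundant of the paralogs, with 31, 4 and 9 counts over WT against 440, 146 and 170 over TetAXXC. Its level rose from 0.785 ± 0.747 to 13.2 ± 8.48 CPM, or by 4.04 on the log2 scale (standard error 0.74), for which edgeR gave an adjusted p of 0.0188. COX4 stood at 157, 176 and 156 CPM in the WT libraries and 151, 158 and 143 CPM in the mutant ones, with an adjusted p of 0.202. Per kb, COX4L stood at 1.75%, 0.211% and 0.545% of COX4 in the WT libraries and at 25.7%, 7.97% and 10.9% in the TetAXXC libraries.

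COX5BL begins 122 bp downstream of COX5B on the same strand of chromosome 2L (6559431 to 6560133). It had 18, 1 and 3 counts in the WT libraries against 155, 54 and 66 in the mutant libraries, or 3.58 higher on the log2 scale (edgeR adjusted p = 0.0371). Its neighbour COX5B had an adjusted p of 0.823. All exonic bases of COX5BL lie opposite exons of CG9596, which had an adjusted p of 0.873, and whose mean of 14.98 CPM in WT stood beside 0.39 CPM for COX5BL, so most reads of CG9596 were not counted for COX5BL. COX7AL (chromosome 3R, positions 8343669 to 8344310), 2625 bp from COX7A, counted 14, 6 and 9 across WT replicates and 163, 40 and 61 across TetAXXC replicates, or 3.12 higher on the log2 scale (edgeR adjusted p = 0.0216). COX6AL, a copy of levy (chromosome 2R, positions 15944028 to 15944567), had 2, 2 and 3 counts over WT and 87, 23 and 30 over TetAXXC. Its mean was at least 14.98-fold above the WT floor, with an adjusted p of 0.0173, whereas levy had 0.763.

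ATP synthase held the most abundant general genes, and 0 of its 11 general genes were called in the unblocked model. ATPsynC, which encodes the membrane ring subunit, led at 529 ± 33.5 CPM per kb, and the catalytic subunit gene ATPsynbeta followed at 403 ± 14.9. The libraries of these genes did not overlap. ATPsyndelta, of the central stalk, was lowest at 32.6 ± 2.21 CPM per kb. This rank rests on its merged exon length of 3817 bp. Without scaling by length, its WT mean of 125 CPM was above that of ATPsynE at 87.5 CPM. ATPsynC stood at 1089 ± 59.7 CPM in the WT libraries and 1005 ± 47.2 CPM in the mutant ones, which is -0.12 on the log2 scale (edgeR adjusted p = 0.187). Its libraries overlapped between the genotypes, and the adjusted p was 0.0422 with the replicate block.

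**Figure D4:**
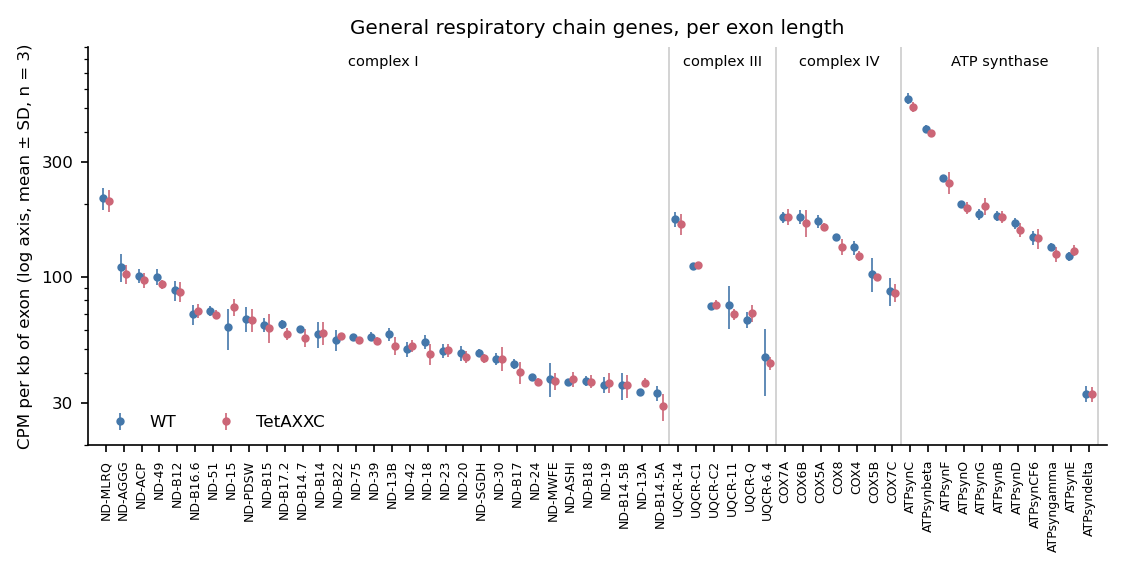
CPM per kb of exon (log axis, mean ± SD, n = 3 libraries) of the 56 tested general genes in WT and TetAXXC, ordered by level within each complex. The genotypes lie close together at every gene, from 30.9 CPM per kb for ND-B14.5A to 529 CPM per kb for ATPsynC over all libraries.

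The ATP synthase paralogs differed among themselves, as 2 rose, 1 was not tested and 1 overlapped between the genotypes. ATPsynCF6L, a copy of a stalk subunit gene (chromosome 3L, positions 5011444 to 5012133), had 13, 1 and 0 counts in the WT libraries against 172, 36 and 81 in the mutant libraries. ATPsynGL, a copy of a membrane subunit gene (chromosome 2L, positions 7747275 to 7747874), counted 13, 4 and 1 across WT replicates and 152, 44 and 73 across TetAXXC replicates. Both rose, by log2 differences of 4.30 and 3.84 (edgeR adjusted p = 0.0418 and 0.0238). Their counterparts ATPsynCF6 and ATPsynG had adjusted p of 0.900 and 0.384.

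ATPsynbetaL, a copy of the catalytic subunit gene (chromosome 3L, positions 16097834 to 16100088), had 7, 2 and 0 counts over WT and 237, 4 and 143 over TetAXXC. TetAXXC replicate 2 thus lay within the WT range while the other mutant libraries were far above it, and only these 2 libraries reached the filter's minimum count. Without the filter its edgeR adjusted p was 0.0426, and it was 0.0130 without TetAXXC replicate 2. ATPsynepsilonL, a copy of sun (chromosome 3R, positions 10121773 to 10122320), was the only L paralog with over 20 counts in each WT library. It had 41, 25 and 33 counts in the WT libraries against 71, 20 and 23 in the mutant libraries. The groups overlapped, and the log2 fold change of 0.14 (standard error 0.54) had an adjusted p of 0.918.

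Set against their counterparts per exon length, the paralogs made up little of the transcript of any subunit in WT. Over 16 pairs the paralog stood at 0% to 2.34% of its counterpart in single WT libraries and at 0.0248% to 26.7% in single TetAXXC libraries, the highest being ND-B14.5AL in TetAXXC replicate 1. The median of the pair means was 0.329% in WT and 4.39% in TetAXXC. In 14 of 16 pairs the share was higher in every TetAXXC library than in any WT library. This largely restates the paralog levels, as the counterparts changed little. The levels of 14 of the 16 paralogs did not overlap between the genotypes, where 21.4% of all genes tested were higher without overlap. For a single pair an exact two-sided permutation test of 3 against 3 libraries cannot go below 0.1. None of the 15 counterparts passed the threshold, with edgeR adjusted p of at least 0.202 and log2 fold changes from -0.19 to 0.10.

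The paralogs shared features of gene structure and position that their names do not fix. Of the 16 paralogs of both kinds, 8 consisted of a single exon block and 15 of at most 2, while 2 of the 58 general genes were a single block and 14 had at most 2. The median was 1.5 blocks against 3. In 14 of 16 pairs the paralog had fewer blocks than its counterpart, as in ND-49L with 2 against 7 in ND-49. None of the 16 paralogs lay on chromosome X, which held 12 of the 58 general genes and 5 of the 15 counterparts. In 4 pairs both genes were on the same chromosome arm.

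The summed levels of the general genes and of the paralogs moved differently across libraries. The general genes summed to 6563, 7117 and 6398 CPM in WT replicates 1 to 3 and to 6555, 6731 and 6102 CPM in TetAXXC. Their small differences were shared by the genes: 53 of 56 stood above their own mean in WT replicate 2 and only 2 of 56 in TetAXXC replicate 3. The L paralogs summed to 9.42, 2.96 and 3.86 CPM in WT and to 110, 26.5 and 49.2 CPM in TetAXXC. Replicate 1 was highest in both genotypes, in 14 of 14 genes among the TetAXXC libraries and in 13 of 14 among the WT libraries. The mean was 11.5-fold higher in TetAXXC, or 18.2-fold without WT replicate 1 and 6.99-fold without TetAXXC replicate 1.

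Lists of testis genes moved with the paralogs, and their part in the result was not tested. All 21 matched late spermatid genes rose, against 12.1% of all genes, but 0 of them were called without WT replicate 2, without WT replicate 3 or with limma-voom, where all 21 remained higher in TetAXXC. Their sum was 117, 32.0 and 27.4 CPM in WT and 1650, 554 and 660 CPM in TetAXXC. Of the 14 spermatocyte genes, 9 were tested and 2 rose. With the replicate number as a block 6 of the 9 rose, where 21.1% of all genes were called in either direction. The sum of the 14 genes was 112, 79.3 and 101 CPM in WT and 374, 155 and 242 CPM in TetAXXC, with comr at 0 in every WT library. The early germ cell list (9 genes, 7 tested, 1 higher) summed to 56.6 to 60.2 CPM in WT and 47.2 to 62.3 CPM in TetAXXC. In the blocked model this list had 1 higher and 1 lower.

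**Figure D5:**
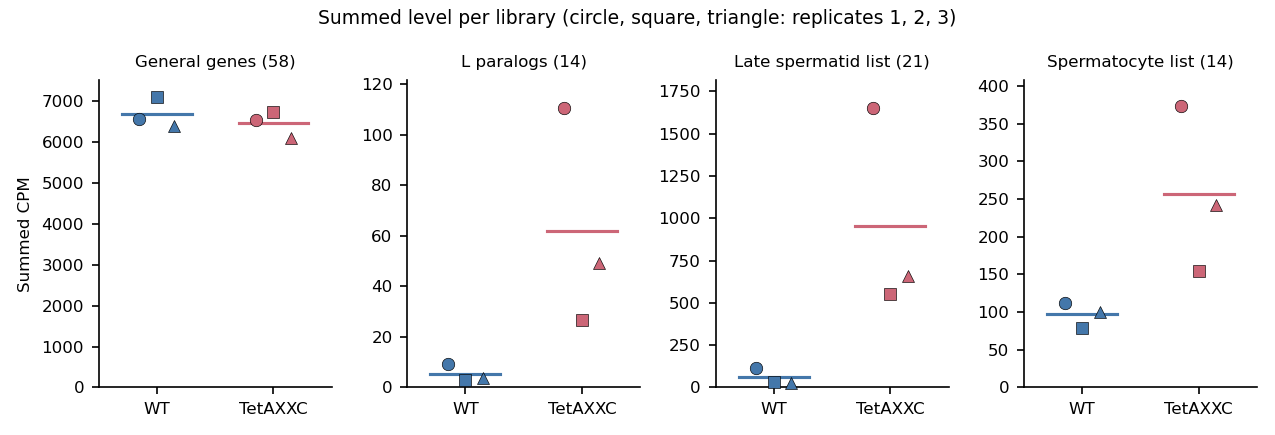
Summed CPM per library of the 58 general genes, the 14 L paralogs, 21 late spermatid genes and 14 spermatocyte genes, each panel from 0 with its own scale; bars are means of 3 libraries. The general genes stay between 6102 and 7117 CPM, and replicate 1 is the highest library of its genotype in the 3 other panels.

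The L paralogs other than ATPsynepsilonL, which was left out after its values were seen, came to a similar share of the late spermatid list in both genotypes. The share was 6.19%, 4.97% and 7.35% in WT replicates 1 to 3 and 6.47%, 4.60% and 7.26% in TetAXXC replicates 1 to 3. With ATPsynepsilonL included it was 8.03%, 9.26% and 14.1% in WT and 6.69%, 4.79% and 7.45% in TetAXXC. Over all 14 L paralogs, every TetAXXC library was thus below every WT library, and the similar share holds only without ATPsynepsilonL. Against the spermatocyte list the same 14 paralogs came to 3.74% to 8.45% in WT and 17.2% to 29.5% in TetAXXC. Most WT counts of that list came from bol (1124, 601 and 1013) and achi (342, 365 and 359). The WT shares against it therefore depend on these genes, and the shares against the lists cannot be compared directly.

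Of the markers of other cell types, the muscle list (10 genes, whose tissue is rich in mitochondria) had 0 calls and summed to 469 to 659 CPM in WT and 482 to 505 CPM in TetAXXC. Against 12.1% higher and 3.17% lower among all genes, the neuron list had 0 calls, the glia list 1 higher and 4 lower of 8, the hemocyte list 2 higher of 7, the eye list 2 lower of 5 tested and the fat body list 2 lower of 7 tested. With the replicate number as a block, the muscle and neuron lists had 1 lower each and the fat body list 4 lower. In that model 21.1% of all genes were called. No gene of these lists was at 0 in all WT libraries.

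Other genes of mitochondrial energy metabolism were taken from lists of the TCA cycle, of complex II and cytochrome c, and of assembly. Of 36 matched genes of 3 lists, all tested, 3 rose and 0 fell, which is 8.33% called against 15.2% of all genes. The 3 were SdhAL and SdhBL, paralogs of complex II subunit genes, and Cyt-c-d, the cytochrome c gene known for its role in spermatids. Cyt-c-d counted 47, 14 and 10 across WT replicates and 537, 168 and 227 across TetAXXC replicates, which is 3.66 on the log2 scale (edgeR adjusted p = 0.0188). Its somatic counterpart Cyt-c-p stood at 54.9 ± 3.45 CPM in the WT libraries and 49.7 ± 1.55 CPM in the mutant ones, with an adjusted p of 0.113. SdhAL had 11, 1 and 1 counts over WT and 218, 55 and 75 over TetAXXC, and SdhBL had 45, 17 and 14 and 547, 132 and 246. These 3 calls were lost without WT replicate 2, without WT replicate 3 and with limma-voom.

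Among the remaining 33 genes, none passed the threshold in the unblocked edgeR model with all libraries. This included the TCA cycle list (12 matched) and the list of assembly and mitochondrial gene expression (9 matched). DESeq2 called Mdh2 of the TCA cycle list and Cyt-c-p lower (adjusted p = 0.0351 and 0.0493). Without TetAXXC replicate 2, edgeR called Cyt-c1 lower (adjusted p = 0.0379). The ATP synthase catalytic partner gene blw stood at 727 ± 14.9 CPM in the WT libraries and 711 ± 9.34 CPM in the mutant ones. The gene srl, a regulator of mitochondrial genes, was at 39.9 ± 1.92 and 40.9 ± 1.19 CPM.

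A further 5 genes, listed under CG numbers, carry L paralog names in the newer annotation, and they were picked by those symbols alone. Of these, 4 were tested and 4 rose, against 12.1% higher among all genes, with log2 fold changes from 2.49 to 4.07. None of the 4 reached the filter's minimum count of 10 in all WT libraries, so they too passed through TetAXXC. CG14077 (now COX6AL2) had 10, 2 and 3 counts in the WT libraries against 154, 52 and 61 in the mutant libraries, though 67.0% of its exonic bases overlap Ir75d on the same strand, a gene with 0 to 1 counts per library. CG44296 (now COX7CL), 281 bp from COX7C, counted 18, 11 and 8 across WT replicates and 136, 42 and 40 across TetAXXC replicates. CG34172 (now COX7AL2) did not follow, with 3, 7 and 6 counts over WT and 2, 11 and 1 over TetAXXC, and it failed the filter.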

How the data were processed

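The deposited values were raw read counts per gene, 1 column for each of 6 libraries, with exon coordinates and merged exon length in a featureCounts layout, per the file headers. The submitters' processing notes name Trimmomatic 0.39, HISAT2, SAMtools, featureCounts and DESeq2 and the builds BDGP6 and dm6, and the strand setting was not given in the sources used here. All 74 members had the same coordinates in the Ensembl annotation of Release 6. CPM was computed on library totals. Low genes were removed with filterByExpr at its minimum count of 10 and minimum total of 15, and the rest tested with edgeR 4.0.16 (TMM, glmQLFit, glmQLFTest, two-sided) in R 4.3.3, with Benjamini-Hochberg adjustment over all 11198 genes tested and a threshold of 0.05; DESeq2 1.42.0 and limma 3.58.1 were alternatives. Standard errors came from the coefficient and its F statistic. The fits were run on simulated data with independent libraries and equal dispersion for all genes. That simulation does not test the calls of low genes with uneven replicates. The fitted log2 fold change of a gene at the floor in WT depends on edgeR's prior count.

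Replicates of a genotype differed beyond sampling noise (chi-square per degree of freedom of 6.94 to 17.8), so all were kept. The labels describe independent biological replicates. Deviations from the genotype means correlated across genes between same-numbered libraries at 0.652, 0.419 and 0.343. The replicate numbers were therefore taken to pair the libraries, as judged from the data and not from the labels. Counts of calls and p-values are from the model without this block unless another setting is named. That model ignores the pairing, and with the block 21.1% of all genes were called instead of 15.2%. Fits with a library left out had no block, so their loss of calls is that of the unpaired model. Blocked fits with a library left out were not run. Blocked values are given where they change a call among the respiratory chain genes or the count of a marker list. Where libraries share a source, p-values measure only the spread between these samples.

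The genes named were all paralogs tested, their counterparts, any general gene called, and the most and least abundant general gene of each complex; others were chosen after their values were seen. The members and lists were chosen with earlier results of these data known. ProtA and ProtB were also listed under older names, and 5 further listed names of the assembly list, 1 of the TCA list and 1 of the spermatocyte list found no gene. No sequences are shown.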

Additional observations from a re-analysis of the deposited data

How the results depend on the processing

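Under limma-voom 130 genes changed over all genes, with 0 of the L paralogs and 0 of the other pathway genes. With only genes averaging at least 4 log2 CPM kept, 268 genes changed, and 0 L paralogs and 0 called pathway genes were left by construction, as no paralog reached that level. Called general genes numbered 1 with the DESeq2 Wald test (ATPsynC) and 2 with the replicate block (ATPsynC and ND-15). Called pathway genes numbered 5 with DESeq2, 3 higher and 2 lower (Mdh2 and Cyt-c-p). The block brought UQCR-11L and ND-51L1 past the threshold, with ND-15 and ATPsynC. It changed no other call among the general genes, the paralogs tested, their counterparts and the pathway genes. Calls in the marker lists did change. With a library left out, from 54 to 2095 genes changed over all genes, from 0 to 2 general genes, from 0 to 12 L paralogs and from 0 to 4 pathway genes; the lowest counts for the paralogs were with WT replicate 2 or WT replicate 3 left out. The general genes called were ATPsyngamma and ND-B14.7 without TetAXXC replicate 2 and ND-B8 without TetAXXC replicate 3. The median log2 fold change of the L paralogs then ranged from 3.38 to 5.25, highest without WT replicate 1. The summed levels and the general genes' median moved by less than the spread between replicates, although that median ranged from -0.11 to 0.0047 with a library left out. Counting ND-51L1 and ND-51L2, ND-MNLL or, chosen after seeing the data, the newer L names as paralogs gave 12, 11 and 15 calls.

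Directions turned only in genes with no call. ATPsynepsilonL was at -0.080 under limma-voom and -0.0094 with the block, COX7A at -0.010 with DESeq2 size factors, -0.0099 with DESeq2, -0.0038 without the filter and -0.00012 with the block, and ATPsyndelta at 0.0093 among genes of at least 4 log2 CPM. With a library left out, the values ran from -0.13 to 0.030 for ATPsynCF6, -0.062 to 0.047 for ATPsyndelta, -0.67 to 0.43 for ATPsynepsilonL, -0.17 to 0.070 for COX5B, -0.054 to 0.058 for COX7A, -0.16 to 0.040 for COX7C, -0.13 to 0.033 for ND-MLRQ, -0.29 to 0.015 for UQCR-11, -0.15 to 0.0047 for UQCR-14, -0.32 to 0.14 for UQCR-6.4 and -0.11 to 0.022 for levy. The cause was not tested. Keeping structural subunits only gave the identical genes, as no assembly factor matched the names. At 0 to 41 counts per WT library, counting error limits the fold of each paralog.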

Other observations

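The paralogs did not fall equally between the TetAXXC libraries. In TetAXXC replicate 2 the level of a paralog was 1.66% to 41.6% of that in replicate 1, with a median of 25.0% over the 16 genes, and in replicate 3 it was 23.7% to 79.6%. The 21 late spermatid genes were closer to each other, at 29.3% to 47.9% in replicate 2 and 19.3% to 55.6% in replicate 3. They had 94 to 1623 counts in TetAXXC replicate 2, against 4 to 146 for the paralogs. Counting error is larger at the lower counts, and its part in the wider spread was not tested. The lowest paralogs in replicate 2 were ATPsynbetaL at 1.66%, ND-51L1 at 11.3% and ND-B14.5AL at 12.5%.

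The spermatocyte list was spread more widely over the same libraries. In TetAXXC replicate 2 its 14 genes stood at 0% to 110% of their level in replicate 1, with a median of 24.7%. The genes below were picked from it after their values were seen. At the low end, beside ATPsynbetaL with 237, 4 and 143 counts in TetAXXC replicates 1 to 3, comr had 25, 0 and 5 counts, and sa, which encodes a spermatocyte transcription regulator, had 66, 2 and 23. The gene nht, which encodes a testis form of a general transcription factor subunit, had 33, 2 and 29, and aly had 45, 3 and 21. The mitochondrial fusion gene fzo, active in spermatids, had 560, 48 and 244. At the high end, mia had 104, 117 and 107 counts in TetAXXC beside 127, 108 and 104 in WT, and achi had 487, 452 and 426 beside 342, 365 and 359. The late spermatid gene Mst77F stood at 33.3% of replicate 1 in replicate 2, and COX4L at 32.6%.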
